A study of Mus musculus with 96 samples.

Results

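The 36 genes described here run or mark the cell division cycle. They were chosen by symbol and not by a cut on measured values, though with earlier results of these data known. They are 36 of the 29072 symbols in the deposited table. Each symbol is represented by the transcript row with the highest mean over all 96 libraries. The groups of the list are 2 proliferation marks (Mki67 and Top2a), 8 genes of G1 cyclins, their kinases and E2f1, 2 CDK inhibitors, 6 subunits of the MCM helicase, 4 genes of the sliding clamp and nucleotide supply, 7 cyclins and kinases of G2 and mitosis, and 7 genes of the spindle, its checkpoint and mitotic exit.

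RNA sequencing was done on interscapular brown fat (iBAT) and inguinal white fat (iWAT) of male C57BL/6J mice, either wild-type or lacking Ucp1 (Ucp1-KO). Ucp1 encodes the mitochondrial uncoupling protein, by which brown adipocytes turn fuel into heat. For 4 weeks, animals of both genotypes lived at 20 °C or at 30 °C with control chow (13% of its energy as fat), and another set per genotype received a diet high in fat (48% of its energy) at 30 °C, so high fat feeding was studied at 30 °C only. The 2 tissues, 2 genotypes and 3 conditions give 12 groups of 8 libraries, 96 in all. How the knockout was made is not given in the sources used here, and no label links the iBAT and iWAT libraries of one mouse. Levels are reads per kilobase of transcript, scaled to the reads of the library (RPKM). The spacing of low values gave depths of 8.91 to 19.2 M reads per library, at which 1 read on a transcript of 1 kilobase is worth 0.052 to 0.112 RPKM. Ucp1 itself averaged 3793, 8227 and 6466 RPKM in the iBAT of wild-type mice (control diet 20 °C, control diet 30 °C, high fat) and 1005, 736 and 778 RPKM in Ucp1-KO iBAT. Ucp1 reads in the KO libraries of iBAT were therefore lower but not at 0. In iWAT on the control diet they were not lower in KO libraries. Wild-type iWAT held 23.9 to 281 RPKM at 20 °C and 4.66 to 117 RPKM at 30 °C. Ucp1-KO iWAT held 196 to 597 and 34.1 to 124 RPKM. On high fat the iWAT ranges were 0.258 to 32.7 and 5.4 to 28.6 RPKM. Which part of the gene the row counts is not given in the sources used here. Adipocyte markers, 12 of 12 in the table, summed to at least 14943 RPKM in every library. Brown adipocyte markers (12 of 12, Ucp1 among them) summed higher in every iBAT library than in every iWAT library of the same genotype and condition. The library labelled Ucp1-KO control diet 30 °C replicate 7 stood apart in iWAT, with B cell markers at 27.2 RPKM against 210 to 515 RPKM in the other 7 libraries of its group. For the temperature and genotype comparisons within iWAT that hold this group, counts of members without that library are also given. Counts of markers, of other cell cycle genes and with a covariate are given with it only. The comparisons between depots were not fitted without it.

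A cell enters division in G1, when D cyclins bind CDK4 and release E2F factors from the retinoblastoma protein, followed by cyclin E with CDK2. In S phase the MCM hexamer unwinds DNA, PCNA holds the polymerases on it, and ribonucleotide reductase and thymidylate synthase supply nucleotides. Cyclin A, cyclin B with CDK1, and the Polo and Aurora kinases then drive mitosis, and the CDK inhibitors p21 and p27 oppose these steps. Mature adipocytes rarely divide. In fat depots the dividing cells are mostly precursor, endothelial and immune cells, and brown fat is known to add cells during cold exposure. These are bulk tissue libraries, in which fewer cells of a dividing type cannot be told apart from less of the RNA per cell.

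Many genes of mitosis share a short promoter element, the cell cycle homology region (CHR), often with CCAAT boxes upstream, and many replication genes carry E2F words instead. The RefSeq promoter windows (mouse, GRCm38.p6, 250 bases before to 50 after the start) covered 29 of the 36 members. Counts are of gene symbols, each counted once if any of its windows matched. TTTGAA, the letters searched for the CHR on both strands, was present for 10 of the 13 covered mitotic genes and proliferation marks (Mki67, Top2a, Ccnb2, Cdk1, Plk1, Aurka, Bub1b, Cdca8, Kif11 and Cdc20), for 1 of 9 replication genes (Mcm2) and for 20.2% of all 27025 symbols. An E2F word (TTTCCCGC, TTTGGCGC, TTTCGCGC or TTTGCCGC, both strands) was present for 4 of 9 replication genes (Mcm3, Mcm5, Mcm6 and Mcm7), for Cdk2 and Cdk1, and for 2.61% of all symbols. CCAAT was present for 23 of the 29 covered members and for 41.1% of all symbols. Such matches are descriptions of the sequence and not evidence of binding. The following 130 bases end at the base before the start and run 5′ to 3′ on the gene's strand. They are shown because Top2a, Cdk1, Cdc20 and Kif11 are mitotic members and Mcm6 is a replication member whose levels are described below, and the capitals mark every CHR, CCAAT and E2F match on either strand.
Top2a (chr11:99024190-99024319, minus strand): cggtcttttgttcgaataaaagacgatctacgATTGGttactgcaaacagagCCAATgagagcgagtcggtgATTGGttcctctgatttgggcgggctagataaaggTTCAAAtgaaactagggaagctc
Cdk1 (chr10:69352913-69353042, minus strand): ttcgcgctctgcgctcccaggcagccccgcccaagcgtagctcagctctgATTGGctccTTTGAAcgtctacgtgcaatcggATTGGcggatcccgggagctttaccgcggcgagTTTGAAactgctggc
Cdc20 (chr4:118437344-118437473, minus strand): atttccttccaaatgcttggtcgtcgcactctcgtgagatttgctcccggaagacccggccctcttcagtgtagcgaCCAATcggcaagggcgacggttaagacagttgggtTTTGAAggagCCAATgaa
Kif11 (chr19:37376252-37376381, plus strand): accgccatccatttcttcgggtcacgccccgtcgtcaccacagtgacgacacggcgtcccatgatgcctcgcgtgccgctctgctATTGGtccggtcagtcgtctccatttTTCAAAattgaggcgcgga
Mcm6 (chr1:128359706-128359835, minus strand): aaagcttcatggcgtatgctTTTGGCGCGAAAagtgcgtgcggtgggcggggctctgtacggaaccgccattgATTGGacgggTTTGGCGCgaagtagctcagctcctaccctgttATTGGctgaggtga
The first 4 each hold CHR letters close to the start, on either strand, and 1 to 3 CCAAT boxes. The Mcm6 stretch holds none of the CHR letters but 3 E2F matches, 2 of which overlap.

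By the mean over all 96 libraries, the CDK inhibitor Cdkn1a (p21) and the G1 genes Ccnd3 and Cdk4 were the most abundant, though not in every group. The mitotic genes were low, above all in iBAT. In wild-type iBAT at 20 °C the median of 8 libraries was under 0.5 RPKM for 16 of the 36 members. In wild-type iWAT at the same temperature this was so for 1 member, Ccnb1 (cyclin B1), which stood at 0 to 0.75 RPKM over all 96 libraries. Ccnb1 did not reach 0.5 RPKM in 8 libraries of either tissue and was not tested, nor was Bub1, a spindle checkpoint kinase, in iBAT, where it was at 0 to 0.613 RPKM. This left 34 members tested in iBAT and 35 in iWAT. At these levels few reads stand behind a value. The Top2a row (803 bases) held 0 to 5 reads per library in wild-type iBAT at 20 °C, the Cdk1 row (378 bases) 0 to 2 and the Aurkb row (1831 bases) 0 to 4. Differences between groups are on the scale log2(RPKM + 1), which understates the change of genes this low. They come from limma-trend fits over all genes of a tissue (14807 in iBAT, 15897 in iWAT), with p-values adjusted by Benjamini-Hochberg over all of them and a threshold of 0.05. Members that passed are said to be higher or lower, or to have risen or fallen. Members passed the filter in part because they were high in some groups, so counts of tested members describe the list and are read beside the share of all genes.

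**Figure D1:**
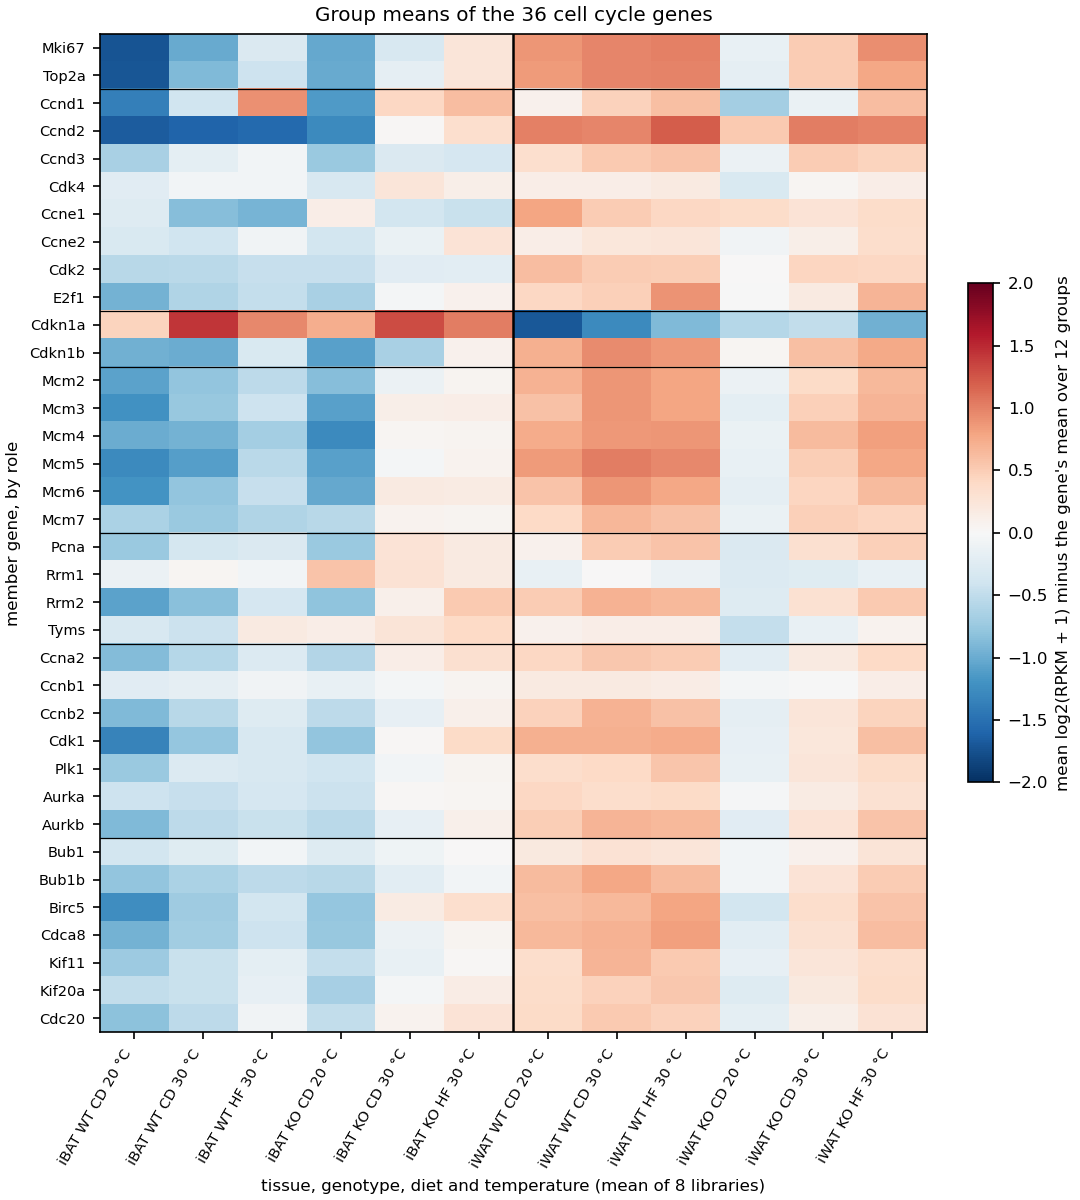
Mean log2(RPKM + 1) of each of the 36 members (rows, by role) in each of the 12 groups of 8 libraries (columns, iBAT then iWAT), after subtracting the gene's mean over the 12 groups, with red above and blue below that mean. The proliferation and mitotic rows are blue in wild-type iBAT at 20 °C and red in wild-type iWAT, and the Cdkn1a row is red in iBAT and blue in iWAT.

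In wild-type iBAT, members were lower at 20 °C than at 30 °C on the control diet: 16 of 34 fell and 1 rose. Of all genes tested, 33% were lower and 11.6% higher, and the median of all genes was -0.12 against -0.27 for the members. Both proliferation marks, the D cyclins Ccnd1 and Ccnd3 and the inhibitor Cdkn1a were among those that fell, while 3 of 6 MCM genes did not pass. Mki67, the antigen of cycling cells, was 0.0674, 0.247 and 0.367 RPKM at 20 °C (lowest, median and highest of 8 libraries, as in all triplets of values that follow) and 0.385, 1.14 and 1.52 RPKM at 30 °C. The libraries of the groups did not overlap, and the log2 difference was -0.72 ± 0.18 (SE; adjusted p = 0.00105). Top2a, the topoisomerase that untangles replicated DNA, was 0, 0.125 and 0.528 RPKM at 20 °C against 0.593, 1.05 and 1.58 RPKM, again without overlap (log2 difference -0.82 ± 0.21, adjusted p = 0.00121). Ccnd1 (cyclin D1) was 2.17, 2.53 and 3.31 RPKM at 20 °C against 4.53, 5.88 and 9.11 RPKM (log2 difference -0.97 ± 0.15, adjusted p = 1.1e-06). Ccnd3 (cyclin D3) was 19.1, 20.6 and 22.8 RPKM against 23.8, 29.2 and 32.1 RPKM (log2 difference -0.44 ± 0.08, adjusted p = 5.9e-06). For both cyclins every library at 20 °C was below every library at 30 °C. Cdkn1a, though an inhibitor of the cycle, fell with them, from 213, 238 and 293 RPKM at 30 °C to 80.8, 124 and 180 RPKM at 20 °C (log2 difference -0.98 ± 0.14, adjusted p = 9.1e-08). Ccnd2 (cyclin D2) stood at 4.58, 7.35 and 8.79 RPKM against 5.12, 7.13 and 9.72 RPKM (log2 difference -0.05 ± 0.20) and did not pass.

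The gene that rose in the cold in wild-type iBAT was Ccne1 (cyclin E1), from 0.159, 0.471 and 0.926 RPKM at 30 °C to 0.799, 1.27 and 1.83 RPKM at 20 °C (log2 difference 0.58 ± 0.14, adjusted p = 0.00042), with overlapping ranges. Of the MCM genes, Mcm3 (-0.45 ± 0.11), Mcm6 (-0.40 ± 0.11) and Mcm2 (-0.27 ± 0.10) fell on the log2 scale, and of the 4 clamp and nucleotide genes the clamp Pcna fell (log2 difference -0.38 ± 0.10, adjusted p = 0.00187). Of the 14 tested proliferation and mitotic members 7 fell and 0 rose, among them Plk1, the Polo kinase, from 0.281, 0.612 and 0.938 RPKM to 0.0476, 0.118 and 0.249 RPKM (log2 difference -0.47 ± 0.10, adjusted p = 0.00026). In all, 6 members (Mki67, Top2a, Ccnd1, Ccnd3, Cdkn1a and Plk1) had every library at 20 °C below every library at 30 °C, a separation that 13.1% of all genes tested showed. Under median-ratio scaling, which centres all genes near 0, 13 members fell and 3 rose, and under quantile normalization 11 fell and 3 rose, while the calls over all genes went from 26.1% higher to 49.7% higher under either.

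In Ucp1-KO iBAT the same comparison held more members: 31 of 34 fell at 20 °C and 2 rose, beside 59.5% of all genes lower and 13.9% higher. The median of all genes was -0.34 and that of the members -0.62. All 6 MCM genes fell. Mcm3 was 0.858, 1.11 and 1.41 RPKM at 20 °C against 2.29, 3.94 and 6.0 RPKM at 30 °C (log2 difference -1.20 ± 0.11, adjusted p = 1.2e-13). Mcm6 was 1.11, 1.54 and 1.96 RPKM against 3.32, 5.02 and 6.75 RPKM (log2 difference -1.19 ± 0.11, adjusted p = 2.3e-13), and Mcm4 was 0.394, 1.05 and 1.93 RPKM against 2.6, 3.94 and 5.56 RPKM (log2 difference -1.30 ± 0.14). None of the 6 helicase genes had overlapping libraries at the 2 temperatures. Pcna was 3.72, 5.48 and 8.52 RPKM at 20 °C against 9.29, 12.4 and 15.3 RPKM (log2 difference -1.01 ± 0.10, adjusted p = 5.8e-12), also without overlap. Rrm2, the regulated subunit of ribonucleotide reductase, fell by 0.90 ± 0.17 on the log2 scale, whereas Rrm1, its partner subunit, rose, from 7.69, 10.4 and 12.8 RPKM at 30 °C to 10.5, 13.0 and 14.9 RPKM at 20 °C (log2 difference 0.28 ± 0.09, adjusted p = 0.00802).

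The G1 genes of Ucp1-KO iBAT fell too, 7 of 8, with Ccne1 again rising (log2 difference 0.49 ± 0.14, adjusted p = 0.00125). Ccnd1 was 2.39, 3.23 and 5.21 RPKM at 20 °C against 5.25, 12.0 and 17.4 RPKM at 30 °C (log2 difference -1.55 ± 0.15, adjusted p = 2.8e-12). Ccnd2 was 4.08, 8.78 and 20.3 RPKM against 18.1, 22.8 and 29.8 RPKM (log2 difference -1.30 ± 0.20, adjusted p = 2e-07). A single library at 20 °C, with 20.3 RPKM, reached into the 30 °C range for Ccnd2, and none did for Ccnd1. Cdk4, the kinase of the D cyclins, fell from 32.6, 36.8 and 40.9 RPKM to 22.4, 23.8 and 29.9 RPKM (log2 difference -0.57 ± 0.06, adjusted p = 9.8e-11), Ccnd3 by 0.45 ± 0.08 and Cdkn1a by 0.58 ± 0.14 on the log2 scale. All 14 tested proliferation and mitotic members fell, with Mki67 at 0.523, 1.05 and 1.45 RPKM against 1.2, 2.25 and 3.77 RPKM (log2 difference -0.71 ± 0.18), Top2a at -0.83 ± 0.21, and Ccna2 (cyclin A2) at 1.53, 1.68 and 3.03 RPKM against 2.67, 3.87 and 4.79 RPKM (log2 difference -0.71 ± 0.10, adjusted p = 4.7e-08). Kif20a, a kinesin of the dividing midzone, was 0.623, 1.26 and 1.54 RPKM against 1.8, 2.23 and 3.07 RPKM (log2 difference -0.62 ± 0.10, adjusted p = 1.5e-07), Birc5 (survivin) differed by -0.95 ± 0.20 and Cdc20, the activator of the anaphase-promoting complex, by -0.57 ± 0.13 on the log2 scale. The libraries of the 2 temperatures did not overlap for 13 members, all lower at 20 °C, beside 27.9% of all genes. Median-ratio scaling left 21 members lower and 2 higher, and quantile normalization 16 lower and 4 higher, with 46.9% and 53.2% of all calls higher in place of 18.9%. Ccne2 (cyclin E2) and Cdk2 changed sign under both scalings, at 0.0013 and 0.16 for Ccne2 and 0.13 and 0.23 for Cdk2, and the inhibitor Cdkn1b (p27) and the checkpoint kinase Bub1b under quantile normalization, at 0.013 and 0.011.

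**Figure D2:**
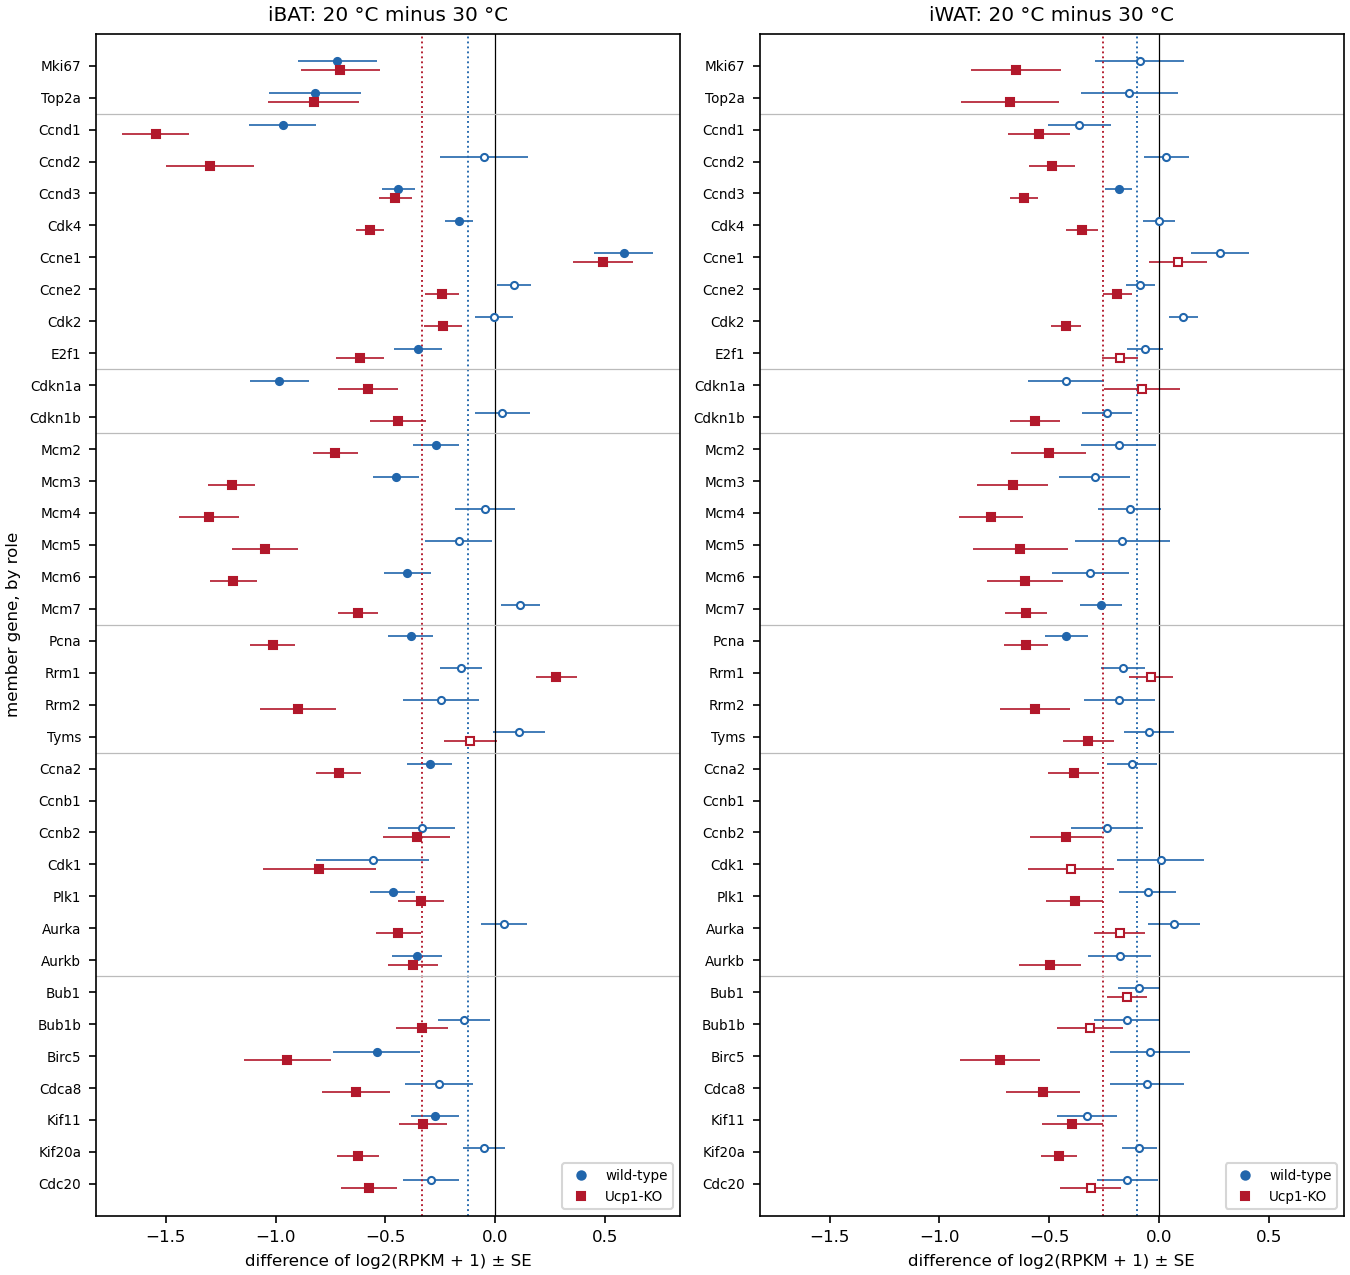
Differences between 20 °C and 30 °C on the control diet for each member (rows, by role), in iBAT (left) and iWAT (right), as log2(RPKM + 1) ± SE, with circles for wild-type and squares for Ucp1-KO. Filled symbols have an adjusted p under 0.05, dotted lines are the medians of all genes tested, and members with no symbol were not tested; most members lie left of 0 in Ucp1-KO mice, while Ccne1 lies right of 0 in both genotypes in iBAT.

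The temperature difference was tested between genotypes as an interaction (the difference in Ucp1-KO minus that in wild-type). It passed downward for 16 of 34 members and upward for 1, beside 40.5% and 11.9% of all genes, with a median of -0.35 against -0.24 for all genes. All 6 MCM genes were among the 16, with Mcm4 at -1.26 ± 0.19 (adjusted p = 7.7e-07), Mcm7 at -0.74 ± 0.13 (adjusted p = 6.5e-06), Mcm6 at -0.79 ± 0.15 and Mcm3 at -0.75 ± 0.15 on the log2 scale. Ccnd2 (-1.25 ± 0.28, adjusted p = 0.00033) and Ccnd1 (-0.58 ± 0.21, adjusted p = 0.0218) were among them too, and Rrm1 passed upward (log2 difference 0.43 ± 0.13, adjusted p = 0.00591). The proliferation marks did not pass, at 0.01 ± 0.26 for Mki67 and -0.01 ± 0.30 for Top2a. At levels this low, equal differences of log2(RPKM + 1) can stand for unequal fold changes. The median of their summed RPKM was 0.428 at 20 °C against 2.23 at 30 °C in wild-type and 2.16 against 4.35 in Ucp1-KO mice. Of the 14 proliferation and mitotic members 3 passed, namely Kif20a, Aurka (the Aurora A kinase) and Ccna2. With median-ratio scaling 9 members passed downward and 2 upward, and with quantile normalization 8 and 3. Calls over all genes then moved from 22.7% higher to 47.3% and 52.6% higher.

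**Figure D3:**
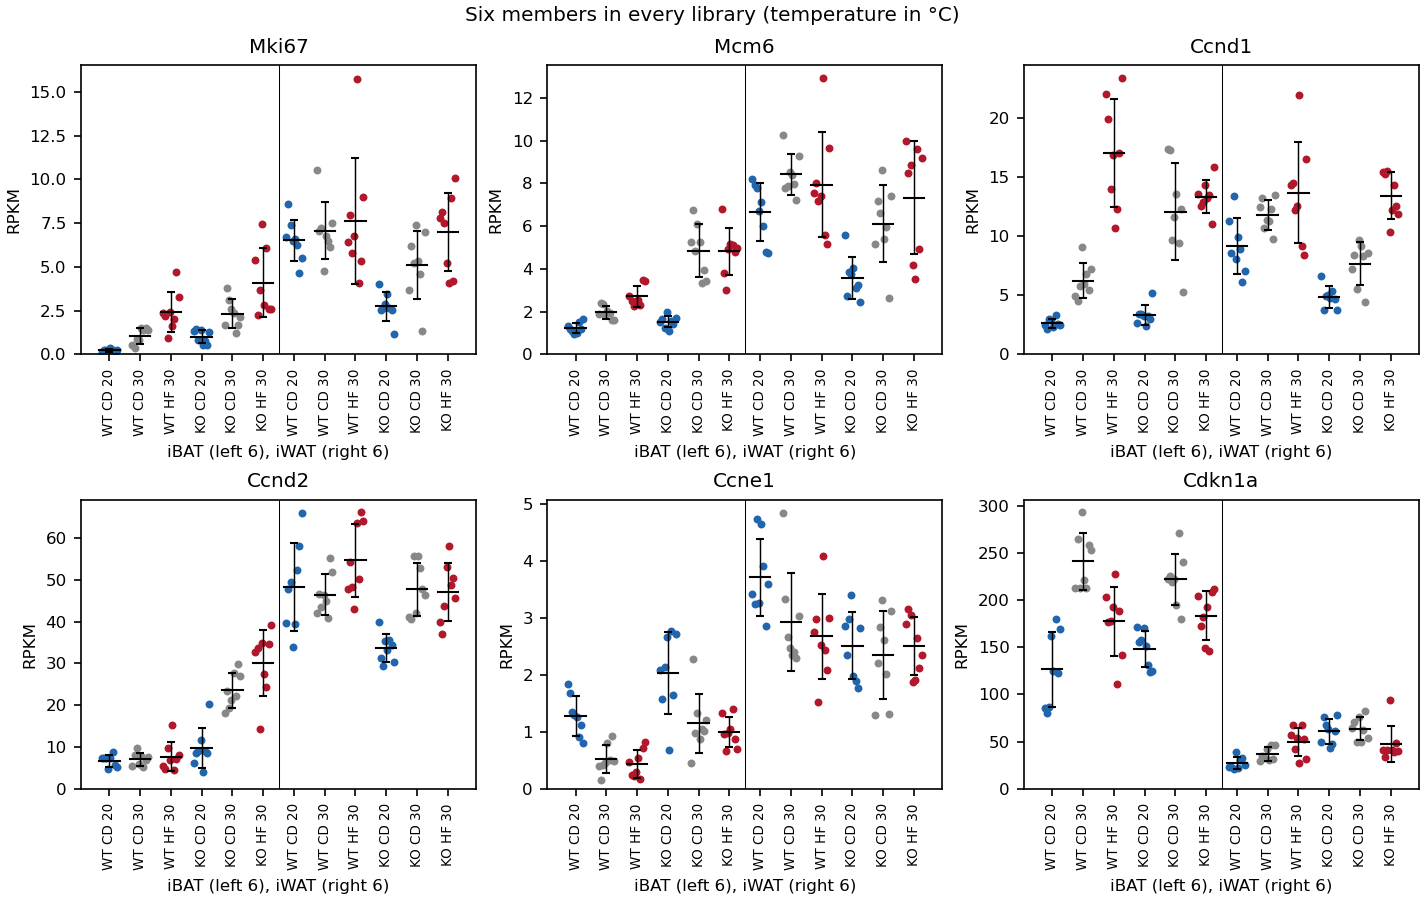
Levels of 6 members (Mki67, Mcm6, Ccnd1, Ccnd2, Ccne1 and Cdkn1a) in each of the 96 libraries, as RPKM on linear axes from 0, by group. Each point is 1 library, the horizontal bar is the group mean and the error bar its SD, with 20 °C in blue, 30 °C in grey and high fat in red. Mki67 has its lowest group mean in wild-type iBAT at 20 °C, and Cdkn1a is higher in iBAT than in iWAT under every condition.

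Between genotypes at 20 °C on the control diet, 10 of 34 members were higher in Ucp1-KO iBAT and 0 lower, beside 24.7% of all genes higher and 13.1% lower. The median of the members was 0.24 and that of all genes 0.06. Of these, 6 are proliferation or mitotic genes (of 14 tested) and 2 supply nucleotides, while 0 of the 6 MCM genes passed. Rrm1 had the smallest p, with 6.47, 7.3 and 9.44 RPKM in wild-type and 10.5, 13.0 and 14.9 RPKM in Ucp1-KO libraries, which did not overlap (log2 difference 0.69 ± 0.09, adjusted p = 6.6e-08). Mki67 did not overlap either, at 0.0674, 0.247 and 0.367 RPKM against 0.523, 1.05 and 1.45 RPKM (log2 difference 0.70 ± 0.18, adjusted p = 0.00179), and these 2 members compare with 9.08% of all genes set apart in that direction. Top2a was 0, 0.125 and 0.528 RPKM in wild-type against 0.239, 1.02 and 1.35 RPKM (log2 difference 0.71 ± 0.21, adjusted p = 0.00592), and Tyms, thymidylate synthase, 0.53, 1.59 and 2.26 RPKM against 1.7, 2.39 and 3.47 RPKM (log2 difference 0.46 ± 0.12, adjusted p = 0.00198). Aurkb, the Aurora B kinase of the chromosome passenger complex, was 0, 0.026 and 0.203 RPKM in wild-type against 0.139, 0.345 and 0.551 RPKM (log2 difference 0.34 ± 0.11, adjusted p = 0.014). The cyclins D1, D2 and D3 differed by 0.23 ± 0.15, 0.38 ± 0.20 and -0.11 ± 0.08 on the log2 scale and did not pass, nor did Cdkn1a (0.28 ± 0.14). Median-ratio scaling gave 12 members higher and 4 lower, with 52% of all calls higher in place of 65.4%, and quantile normalization 10 higher and 4 lower, with 45.2%.

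At 30 °C on the control diet 31 of 34 members were higher in Ucp1-KO iBAT and 0 lower, beside 54.2% of all genes higher and 10.5% lower. The members' median was 0.59 and that of all genes 0.27. Ccnd2 had the largest difference of the list: 5.12, 7.13 and 9.72 RPKM in wild-type and 18.1, 22.8 and 29.8 RPKM in Ucp1-KO libraries (log2 difference 1.63 ± 0.20, adjusted p = 2.3e-09). Ccnd1 was 4.53, 5.88 and 9.11 RPKM against 5.25, 12.0 and 17.4 RPKM (log2 difference 0.81 ± 0.15, adjusted p = 1.1e-05), with overlap. All 6 MCM genes were higher without overlap. Mcm6 stood at 1.6, 1.91 and 2.38 RPKM in wild-type and 3.32, 5.02 and 6.75 RPKM in Ucp1-KO libraries (log2 difference 0.96 ± 0.11, adjusted p = 1.6e-10), and Mcm7 at 2.26, 2.9 and 3.44 RPKM against 4.98, 5.71 and 6.57 RPKM (log2 difference 0.82 ± 0.09, adjusted p = 1.3e-10). Mcm5 was at 0.451, 0.675 and 0.864 RPKM against 1.14, 2.46 and 4.78 RPKM (log2 difference 1.06 ± 0.15), and Mcm2 at 0.487, 0.816 and 1.17 RPKM against 1.2, 1.93 and 2.89 RPKM (0.68 ± 0.10). With Ccnd2, Cdk4, Tyms and Ccna2 these make 10 members without overlap, beside 21.8% of all genes.

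E2f1 was 0.432, 0.781 and 1.16 RPKM in wild-type and 0.87, 1.55 and 2.23 RPKM in Ucp1-KO iBAT at 30 °C (log2 difference 0.56 ± 0.11, adjusted p = 2.1e-05), and Pcna 6.42, 7.36 and 9.36 RPKM against 9.29, 12.4 and 15.3 RPKM (log2 difference 0.62 ± 0.10, adjusted p = 1.1e-06). Both overlapped between genotypes by their extreme libraries. Of the nucleotide genes, Rrm2 was 0.175, 0.456 and 0.908 RPKM in wild-type and 0.623, 1.72 and 4.4 RPKM in Ucp1-KO iBAT (log2 difference 0.92 ± 0.17, adjusted p = 1e-05), and Tyms was 0.851, 1.34 and 1.91 RPKM against 2.23, 2.68 and 3.73 RPKM (log2 difference 0.68 ± 0.12, adjusted p = 3.7e-06). Of the 14 tested proliferation and mitotic members 13 were higher, and the other, Plk1, differed by 0.21 ± 0.10 on the log2 scale. Ccna2 was 1.52, 1.83 and 2.47 RPKM against 2.67, 3.87 and 4.79 RPKM (log2 difference 0.69 ± 0.10, adjusted p = 1.4e-07), Mki67 differed by 0.68 ± 0.18 and Top2a by 0.71 ± 0.21. Birc5 was 0.106, 0.617 and 1.32 RPKM against 0.752, 1.73 and 3.79 RPKM (log2 difference 0.88 ± 0.20, adjusted p = 0.00015). Cdc20 was 0.0814, 0.346 and 0.935 RPKM against 0.438, 1.05 and 2.02 RPKM (log2 difference 0.61 ± 0.13, adjusted p = 6.6e-05), and Cdca8 (borealin), a partner of Aurora B, 0.129, 0.395 and 0.548 RPKM against 0.546, 0.824 and 2.06 RPKM (0.57 ± 0.15). Cdk1, the kinase of the B cyclins, was 0.265, 0.758 and 1.67 RPKM against 0.678, 2.04 and 5.32 RPKM (log2 difference 0.79 ± 0.26, adjusted p = 0.0065), and Aurka 0.309, 0.561 and 0.813 RPKM against 0.714, 1.11 and 1.75 RPKM (log2 difference 0.48 ± 0.10, adjusted p = 0.0001). The 3 members that did not pass were Plk1, Ccnd3 (-0.09 ± 0.08) and Cdkn1a (-0.12 ± 0.14). Median-ratio scaling gave 22 members higher and 2 lower, and quantile normalization 13 and 1, with 51.9% and 42% of all calls higher in place of 83.7%. Rrm1 changed sign under both scalings (-0.05 and -0.13), Cdk4 under the first (-0.02), and Ccne2 (-0.09), Cdk2 (-0.08) and Cdkn1b (-0.04) under the second.

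On the high fat diet at 30 °C, 29 of 34 members were higher in Ucp1-KO iBAT and 1, Ccnd3, was lower, beside 52.8% and 11% of all genes, with medians of 0.47 and 0.25. Ccnd2 was 4.4, 6.98 and 15.3 RPKM in wild-type and 14.2, 33.3 and 39.3 RPKM in Ucp1-KO libraries (log2 difference 1.88 ± 0.20, adjusted p = 7.3e-11). Ccnd3 was 26.7, 31.4 and 39.7 RPKM against 21.2, 25.9 and 30.9 RPKM (log2 difference -0.28 ± 0.08, adjusted p = 0.00143). Ccnd1, with nearly the same estimate but a larger SE, did not pass (-0.29 ± 0.15). Mcm7 was 2.98, 3.2 and 3.57 RPKM against 3.5, 5.91 and 6.99 RPKM (log2 difference 0.65 ± 0.09, adjusted p = 3.1e-08), and all 6 MCM genes were higher. Mki67 (0.55 ± 0.18, adjusted p = 0.00787) and Top2a (0.67 ± 0.21, adjusted p = 0.00518) were higher with overlap, and Aurkb was 0.173, 0.411 and 0.807 RPKM against 0.601, 1.04 and 1.63 RPKM (log2 difference 0.53 ± 0.11, adjusted p = 8e-05). Cdkn1a differed by 0.06 ± 0.14. Of the members only Mcm2 had no overlap, beside 20.4% of all genes. Median-ratio scaling gave 16 members higher and 3 lower, and quantile normalization 9 and 2, with 51.2% and 41.1% of all calls higher in place of 82.7%. Rrm1, Cdk4, Cdk2, Ccne2 and Kif20a were among the 29 and changed sign under at least 1 of these scalings.

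**Figure D4:**
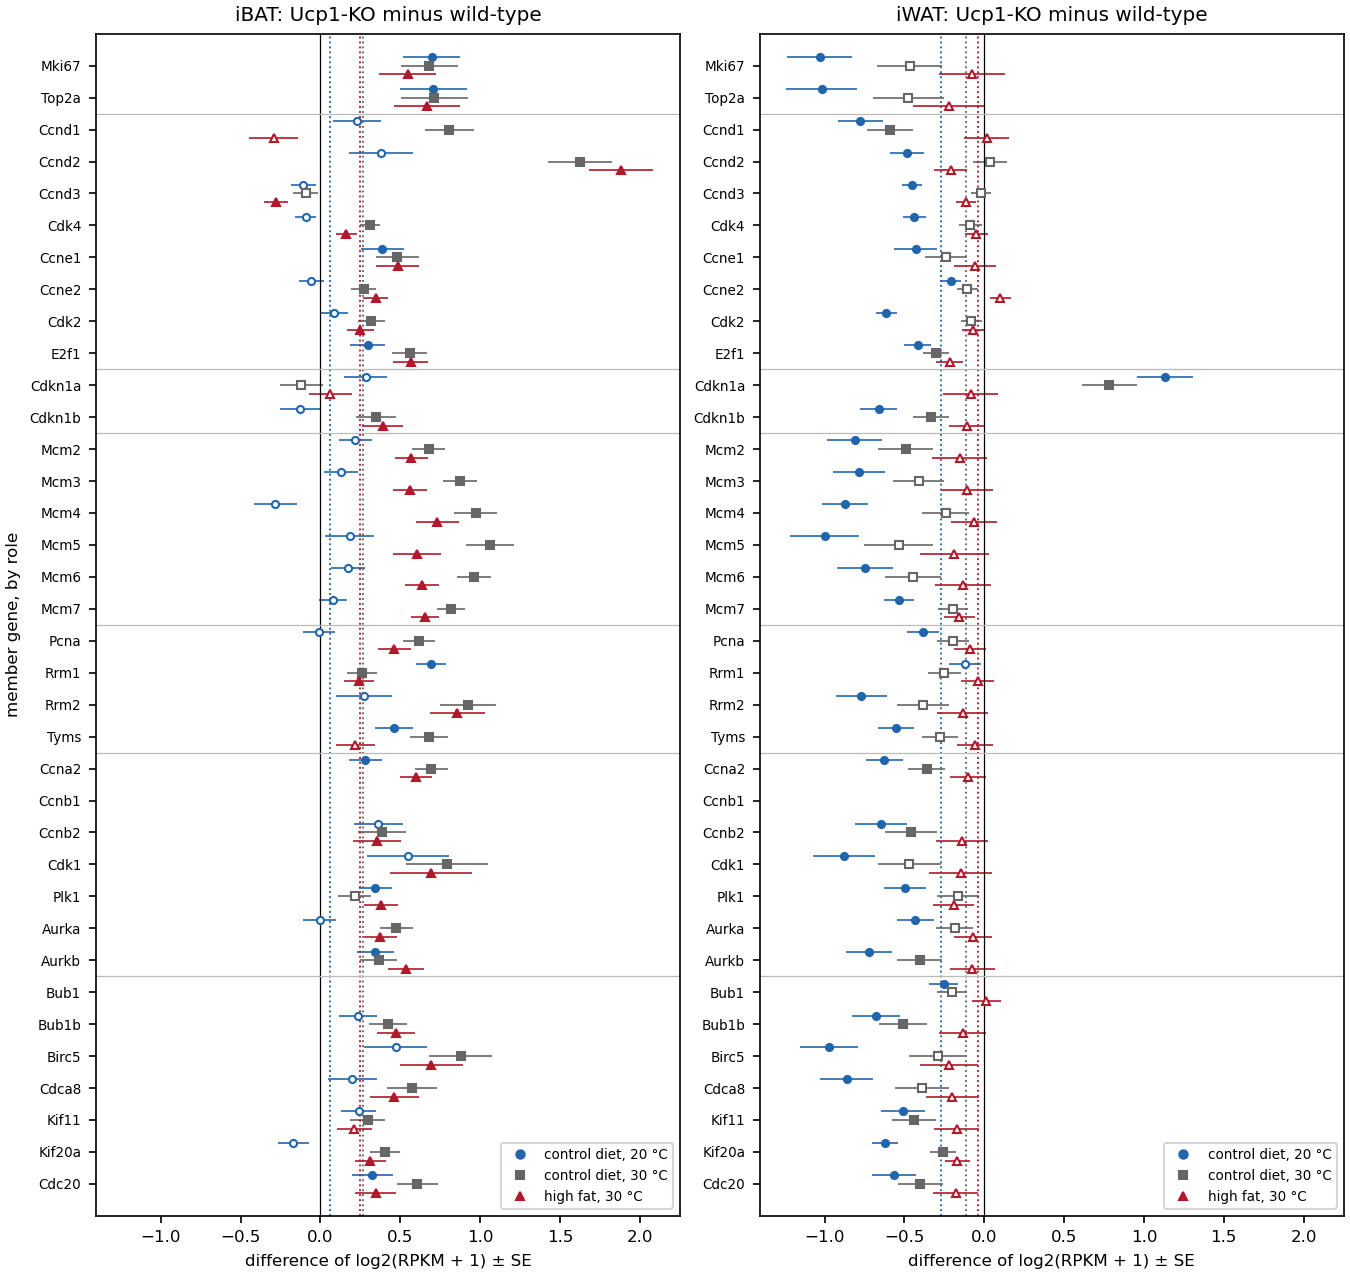
Differences between Ucp1-KO and wild-type for each member (rows, by role) under the 3 conditions, in iBAT (left) and iWAT (right), as log2(RPKM + 1) ± SE. Filled symbols have an adjusted p under 0.05 and dotted lines are the medians of all genes tested; on the scale as deposited, in iBAT at 30 °C 31 members lie right of 0 with filled symbols, and in iWAT at 20 °C 33 lie left of 0.

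At 30 °C, 13 of 34 members were higher on high fat than on the control diet in wild-type iBAT and 1 was lower, beside 18.5% of all genes higher and 14.5% lower, with medians of 0.28 and 0.02. Ccnd1 went from 4.53, 5.88 and 9.11 RPKM on the control diet to 10.7, 17.0 and 23.4 RPKM on high fat (log2 difference 1.30 ± 0.15, adjusted p = 9.2e-09). The inhibitor Cdkn1b went from 5.29, 7.01 and 8.71 RPKM to 8.93, 11.1 and 15.4 RPKM (log2 difference 0.68 ± 0.13, adjusted p = 3.7e-05), and Tyms from 0.851, 1.34 and 1.91 RPKM to 1.95, 2.74 and 3.05 RPKM (log2 difference 0.61 ± 0.12, adjusted p = 8.9e-05). These 3 did not overlap, a separation that 3.59% of all genes showed. Mki67 rose from 0.385, 1.14 and 1.52 RPKM to 0.933, 2.3 and 4.73 RPKM (log2 difference 0.71 ± 0.18, adjusted p = 0.00187), with Top2a at 0.47 ± 0.21 and not past the threshold. Mcm5 rose by 0.56 ± 0.15 and Cdc20 by 0.45 ± 0.13 on the log2 scale. Cdkn1a fell from 213, 238 and 293 RPKM to 111, 183 and 228 RPKM (log2 difference -0.46 ± 0.14, adjusted p = 0.00735). Median-ratio scaling and quantile normalization left 13 and 14 members higher, each with 1 lower.

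In Ucp1-KO iBAT 3 of 34 members were higher on high fat and 0 lower, beside 8.35% and 8.02% of all genes, with medians of 0.16 and -0.01. Cdkn1b went from 7.24, 9.2 and 11.0 RPKM to 12.5, 14.8 and 19.9 RPKM (log2 difference 0.72 ± 0.13, adjusted p = 4.9e-05) and Ccne2 from 1.32, 1.65 and 2.06 RPKM to 2.16, 2.4 and 3.33 RPKM (log2 difference 0.40 ± 0.08, adjusted p = 0.00019), both without overlap, beside 1.47% of all genes. Mki67 rose by 0.58 ± 0.18 (adjusted p = 0.0221). Without replicate 4 of the Ucp1-KO control diet group the count was 5. The diet difference itself differed between genotypes for 1 member, Ccnd1, at -1.10 ± 0.21 on the log2 scale (adjusted p = 0.00114; 2 members without replicate 6 of the Ucp1-KO high fat group), beside 3.78% of all genes in that direction and 2.78% in the other. In Ucp1-KO iBAT Ccnd1 was 5.25, 12.0 and 17.4 RPKM on the control diet and 11.0, 13.3 and 15.8 RPKM on high fat.

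Markers of several other cell types moved with the members between temperatures and genotypes in iBAT, while macrophage markers did not between diets. The 19 macrophage markers in the table (of 20 listed) summed to 124 to 169 RPKM in wild-type mice at 20 °C, 275 to 436 RPKM at 30 °C and 198 to 576 RPKM on high fat, and to 162 to 484, 549 to 2950 and 775 to 2332 RPKM in the same order in Ucp1-KO mice. None was at 0 throughout a group. From control diet to high fat in Ucp1-KO iBAT the median of these sums went down, from 2158 to 1347 RPKM. The median sum of the 16 proliferation and mitotic members went up there, from 21.7 to 27.3 RPKM. Of the 19, the cold groups were lower for 15 (wild-type) and 19 (Ucp1-KO), and Ucp1-KO iBAT was higher for 13 in the cold, 17 in the warm and 17 with high fat. In the same order, 33% and 59.5% of all genes were lower, and 24.7%, 54.2% and 52.8% were higher. Fibroblast and progenitor markers (12 of 12) summed to 360 to 833 RPKM in wild-type and 721 to 1368 RPKM in Ucp1-KO iBAT at 30 °C, with 12 of 12 higher. Endothelial markers (12 of 12) were higher for 7 in that comparison, beside 54.2% of all genes. In wild-type mice on high fat against control diet, endothelial markers were higher for 12 and macrophage markers for 1, beside 18.5% of all genes. At 20 °C against 30 °C the 12 progenitor and fibroblast markers were lower for 8 in wild-type and 12 in Ucp1-KO iBAT, beside 33% and 59.5% of all genes. Brown adipocyte markers (12 of 12) went the other way in sum. They stood at 10535 to 13171 RPKM in wild-type and 2692 to 5543 RPKM in Ucp1-KO iBAT at 30 °C, without overlap. On high fat they stood at 7571 to 12450 against 1957 to 3578 RPKM, also without overlap. These sums include Ucp1 itself, at 7328 to 9281 RPKM in wild-type and 564 to 1112 RPKM in Ucp1-KO iBAT at 30 °C on the control diet. Ucp1 made up most of the wild-type sums, so the sums do not tell how the rest of the list moved. Gene by gene 6 of the 12 were lower and 1 higher in Ucp1-KO iBAT at 30 °C, and 5 and 3 on high fat. Of all genes 10.5% were lower and 54.2% higher at 30 °C, and 11% and 52.8% on high fat. T cell markers (11 in the table) were higher for 11 in Ucp1-KO iBAT at 30 °C and on high fat, beside the same 54.2% and 52.8%. B cell markers stayed at 0.398 to 58.6 RPKM in sum over all iBAT libraries, with the median of all 12 under 0.5 RPKM in each wild-type group. When the mean log2(RPKM + 1) of the macrophage markers was added to the fit as a covariate, a choice made after the values were seen, 5 members were higher in Ucp1-KO iBAT at 30 °C (1 lower), 2 on high fat (1 lower) and 2 at 20 °C (2 lower), 8 were lower and 3 higher in Ucp1-KO and 5 lower and 1 higher in wild-type mice at 20 °C against 30 °C, and 14 were higher and 1 lower on high fat in wild-type mice. With it the sign turned for 13 of the 31 members called between genotypes at 30 °C (Aurka, Aurkb, Birc5, Bub1b, Ccnb2, Ccne1, Cdk1, Cdkn1b, Kif11, Mki67, Rrm1, Rrm2 and Top2a). It turned for 13 of the 30 called on high fat (Aurka, Aurkb, Birc5, Bub1b, Ccnb2, Cdc20, Cdca8, Cdk1, Kif20a, Mki67, Plk1, Rrm1 and Top2a) and for 10 of the 33 called between temperatures in Ucp1-KO mice (Aurka, Aurkb, Bub1b, Ccnb2, Cdk1, Kif11, Mki67, Plk1, Rrm2 and Top2a). Of these, Aurkb passed with the turned sign at 30 °C (-0.41, adjusted p = 0.048) and between temperatures (0.43, adjusted p = 0.029). In each of these comparisons the macrophage marker sums of the groups did not overlap, nor did they between temperatures in wild-type mice. The fit therefore cannot separate the marker level from genotype, or from temperature, in them. The part of these cells in the differences was not tested.

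**Figure D5:**
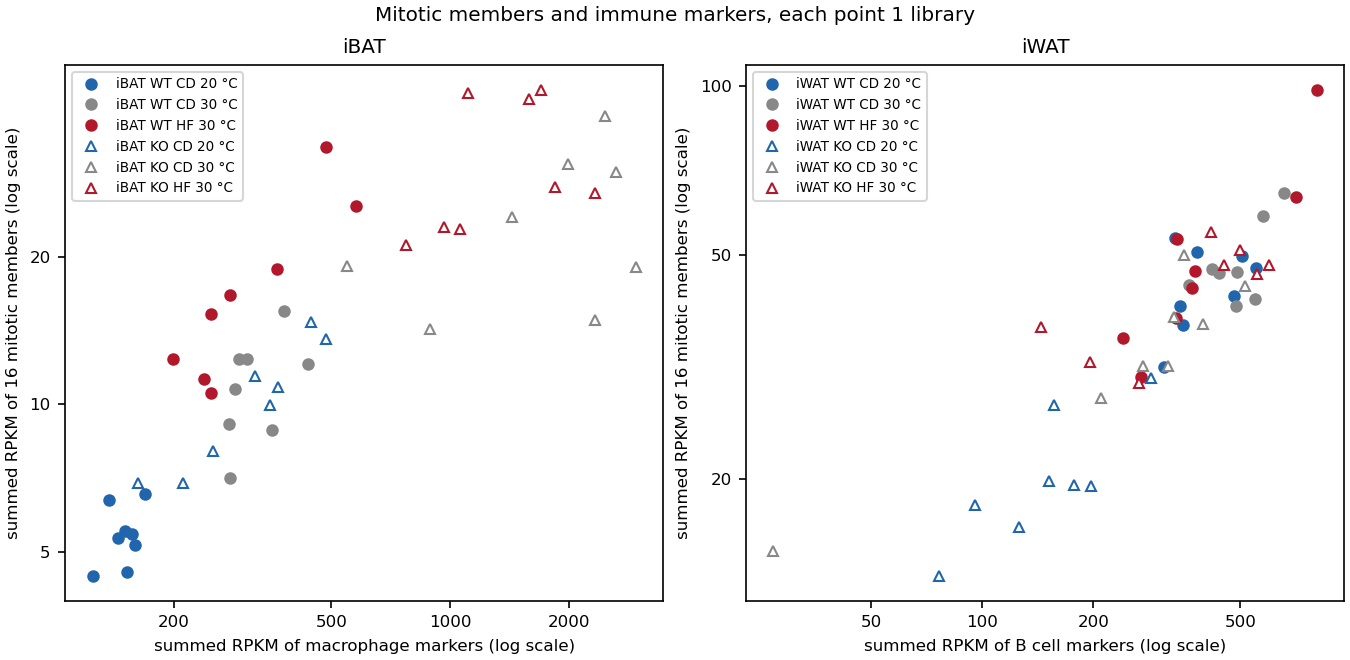
Summed RPKM of the 16 proliferation and mitotic members in each library (log scale) against the summed RPKM of macrophage markers in iBAT (left) and of B cell markers in iWAT (right; log scales), each point 1 library. Filled circles are wild-type and open triangles Ucp1-KO libraries. The group medians of both sums are lowest in wild-type mice at 20 °C in iBAT and in Ucp1-KO mice at 20 °C in iWAT, with overlap between libraries of different groups.

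In iWAT of wild-type mice few members differed between temperatures: 3 of 35 were lower at 20 °C and 0 higher, beside 12.4% and 7.25% of all genes, with medians of -0.13 and -0.10. Pcna was 8.9, 10.5 and 12.8 RPKM at 20 °C and 11.4, 14.7 and 17.0 RPKM at 30 °C (log2 difference -0.42 ± 0.10, adjusted p = 0.0025). Mcm7 was 6.58, 7.38 and 8.41 RPKM against 8.59, 9.09 and 10.7 RPKM, without overlap (log2 difference -0.27 ± 0.10, adjusted p = 0.0421), beside 1.89% of all genes, and Ccnd3 differed by -0.18 ± 0.06 (adjusted p = 0.0329), a sign that turned with the RefSeq transcript row of the gene (0.019, adjusted p = 0.85). Mki67 stood at 4.65, 6.54 and 8.58 RPKM against 4.77, 6.9 and 10.5 RPKM (log2 difference -0.09 ± 0.20). Leaving out replicate 4, 6 or 8 of the wild-type control diet 30 °C group left 1 member. With median-ratio scaling 1 member was lower and 2 were higher, and with quantile normalization 2 and 2, and calls over all genes moved from 37% higher to 71% and 64.7%.

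In Ucp1-KO iWAT 26 of 35 members were lower at 20 °C than at 30 °C and 0 higher, beside 51.4% and 9.02% of all genes, with medians of -0.46 and -0.25. Ccnd3 was 28.6, 30.6 and 33.6 RPKM against 41.1, 49.0 and 51.2 RPKM (log2 difference -0.62 ± 0.06, adjusted p = 1.1e-10). Mcm7 was 4.14, 4.56 and 6.29 RPKM against 6.47, 8.03 and 10.3 RPKM (log2 difference -0.60 ± 0.10, adjusted p = 1.2e-06), and neither overlapped. All 6 MCM genes were lower, as were 10 of the 15 tested proliferation and mitotic members, among them Kif20a at 1.58, 1.88 and 2.37 RPKM against 2.12, 2.83 and 4.03 RPKM (log2 difference -0.46 ± 0.08, adjusted p = 8.8e-06). Mki67 was 1.14, 2.64 and 4.03 RPKM against 1.34, 5.28 and 7.38 RPKM (log2 difference -0.65 ± 0.20, adjusted p = 0.00614), Ccnd1 fell by 0.55 ± 0.14, Ccnd2 by 0.49 ± 0.10 and Top2a by 0.68 ± 0.22, and Cdkn1a did not pass (-0.08 ± 0.17). The members without overlap were Ccnd2, Ccnd3, Cdk4 and Mcm7, 4 in number, beside 9.69% of all genes. Median-ratio scaling gave 10 members lower and 2 higher, and quantile normalization 12 and 2, with 63.3% and 53.6% of all calls higher in place of 14.9%, and Ccne2 changed sign under both (0.043 and 0.073). Without Ucp1-KO control diet 30 °C replicate 7 the count lower at 20 °C was 29. The interaction of genotype with temperature passed downward for 6 members (9 without that library), namely Cdk2 (-0.53 ± 0.09), Ccnd3 (-0.43 ± 0.09), Ccnd2, Cdk4, Mcm4 and Kif20a, beside 11.1% of all genes lower and 2.15% higher, and for 1 member with either scaling, when 83.8% (median-ratio) and 72.5% (quantile) of all calls were higher in place of 16.2%.

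At 20 °C the genotype difference in iWAT was mostly downward, whereas in iBAT 10 of 34 members were higher in Ucp1-KO mice, beside 24.7% of all genes. Of 35 members tested in iWAT 33 were lower in Ucp1-KO mice and 1, Cdkn1a, was higher, beside 55% and 9.85% of all genes, with medians of -0.62 and -0.27. Mki67 was 4.65, 6.54 and 8.58 RPKM in wild-type and 1.14, 2.64 and 4.03 RPKM in Ucp1-KO libraries (log2 difference -1.03 ± 0.20, adjusted p = 3.8e-05). Top2a was 3.35, 5.53 and 8.17 RPKM against 1.61, 2.0 and 3.99 RPKM (log2 difference -1.02 ± 0.22, adjusted p = 0.00013). Cdk2, the partner of the E cyclins, was 12.6, 14.7 and 16.1 RPKM against 7.46, 9.36 and 11.6 RPKM (log2 difference -0.61 ± 0.07, adjusted p = 5.8e-10), and Kif20a 2.99, 3.45 and 3.69 RPKM against 1.58, 1.88 and 2.37 RPKM (log2 difference -0.62 ± 0.08, adjusted p = 3.2e-08). Mki67, Cdk2 and Kif20a did not overlap between genotypes and Top2a did. All 15 tested proliferation and mitotic members were lower, including Birc5 (-0.97 ± 0.18), Cdca8 (-0.86 ± 0.17) and Bub1b (-0.68 ± 0.15), and all 6 MCM genes, with Mcm4 at 5.39, 7.19 and 8.37 RPKM against 2.6, 3.22 and 4.76 RPKM (log2 difference -0.87 ± 0.14, adjusted p = 2.6e-06).

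Ccnb2 (cyclin B2) was 1.17, 2.16 and 3.09 RPKM in wild-type and 0.433, 1.13 and 1.55 RPKM in Ucp1-KO iWAT at 20 °C (log2 difference -0.65 ± 0.16, adjusted p = 0.00074). Kif11, the spindle motor, was 0.982, 1.31 and 2.07 RPKM against 0.388, 0.658 and 1.01 RPKM (log2 difference -0.51 ± 0.14, adjusted p = 0.00159), and Bub1, which passed the filter in iWAT, 0.26, 0.537 and 0.641 RPKM against 0.154, 0.258 and 0.423 RPKM (log2 difference -0.25 ± 0.09, adjusted p = 0.0145). For all 3 the extreme libraries of the genotypes overlapped. Tyms did not overlap, at 1.79, 2.33 and 3.23 RPKM against 0.709, 1.34 and 1.72 RPKM (log2 difference -0.55 ± 0.11, adjusted p = 6.8e-05). The D cyclins of iWAT were lower in Ucp1-KO mice at 20 °C, with log2 differences of -0.78 ± 0.14 for Ccnd1, -0.48 ± 0.10 for Ccnd2 and -0.45 ± 0.06 for Ccnd3. E2f1, the transcription factor they release, was 2.2, 2.59 and 2.9 RPKM against 1.2, 1.67 and 2.05 RPKM (log2 difference -0.42 ± 0.08, adjusted p = 4.2e-05). Cdkn1a was 20.7, 24.4 and 39.1 RPKM in wild-type and 42.8, 62.4 and 78.2 RPKM in Ucp1-KO libraries (log2 difference 1.13 ± 0.17, adjusted p = 6.7e-07), and Cdkn1b moved the other way, at 20.7, 24.3 and 29.2 RPKM against 12.6, 15.2 and 20.1 RPKM (log2 difference -0.66 ± 0.11, adjusted p = 4.9e-06). Neither inhibitor overlapped between genotypes. In all, 14 members were apart and lower and 1 apart and higher, beside 14.7% and 3.41% of all genes. Rrm1, at 5.83, 7.61 and 8.42 RPKM against 5.67, 6.47 and 7.49 RPKM, did not pass (log2 difference -0.12 ± 0.10). Either scaling gave 24 members lower and 2 higher, with 54.8% and 50.8% of all calls higher in place of 15.2%, and Ccne2, among the 33 lower members, changed sign under both (0.036 and 0.11).

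At 30 °C on the control diet 11 of 35 members were lower in Ucp1-KO iWAT and 1 higher, beside 16.2% and 7.54% of all genes, with medians of -0.30 and -0.12. Cdkn1a was 29.8, 33.4 and 46.6 RPKM in wild-type and 49.9, 63.4 and 82.2 RPKM in Ucp1-KO libraries (log2 difference 0.78 ± 0.17, adjusted p = 0.00143), and Ccnd1 was 9.76, 11.8 and 13.5 RPKM against 4.4, 8.38 and 9.71 RPKM (log2 difference -0.59 ± 0.14, adjusted p = 0.00341). Neither overlapped, beside 2.86% of all genes apart and higher and 1.3% apart and lower. Mki67 and Top2a did not pass, each at -0.47 (± 0.20 and ± 0.22), nor did Ccnd2 (0.04 ± 0.10) or Ccnd3 (-0.02 ± 0.06), while Bub1b (-0.51 ± 0.15) and Kif11 (-0.44 ± 0.14) were lower. The count rested on single libraries: leaving out 1 library moved it between 4 and 20 members, with 4 without Ucp1-KO control diet 30 °C replicate 7, 20 without replicate 8 of that group, 19 without its replicate 4, 6 without its replicate 1, 6 without wild-type replicate 1 and 7 without wild-type replicate 8. Either scaling gave 3 members lower and 1 higher, with 69.4% and 65.2% of all calls higher in place of 31.7%. On high fat 0 of 35 members passed, beside 0.195% of all genes higher and 0.0881% lower (31 and 14 genes), with 3 members at an unadjusted p under 0.05 (Ccnd2, E2f1 and Kif20a). With median-ratio scaling and quantile normalization again 0 passed, with 85.4% and 88.7% of all calls higher in place of 68.9%. Mki67 there was 4.08, 6.59 and 15.7 RPKM in wild-type and 4.08, 7.66 and 10.1 RPKM in Ucp1-KO libraries (log2 difference -0.08 ± 0.20).

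E2f1 was higher on high fat in the iWAT of both genotypes. In wild-type mice it was the 1 member to pass, from 2.31, 2.72 and 2.95 RPKM to 3.32, 3.79 and 4.95 RPKM without overlap (log2 difference 0.42 ± 0.08, adjusted p = 0.00038), beside 9.69% of all genes higher and 3.84% lower. In Ucp1-KO mice it went from 1.48, 2.02 and 2.67 RPKM to 2.59, 3.02 and 4.71 RPKM (log2 difference 0.50 ± 0.08, adjusted p = 1.1e-05). There Ccnd1 also rose, from 4.4, 8.38 and 9.71 RPKM to 10.3, 13.5 and 15.5 RPKM (log2 difference 0.76 ± 0.14, adjusted p = 8.7e-05), Ccne2 rose by 0.23 ± 0.07 and Cdkn1a fell by 0.47 ± 0.17, so 3 of 35 members were higher and 1 lower, beside 16.1% and 8.31% of all genes. Each scaling gave 2 members higher and 1 lower, with 43.8% (median-ratio) and 44.2% (quantile) of all calls higher in place of 65.9%. The diet difference did not differ between genotypes for any of the 35 members in limma (0 calls, and 3 at an unadjusted p under 0.05, namely Ccnd1, Ccne2 and Cdkn1a), beside 0.101% of all genes higher and 1.23% lower. Leaving out single libraries changed these counts. The wild-type count was 2 in place of 1 without wild-type high fat replicate 5, and the Ucp1-KO count ran from 3 to 5. The interaction gave 2 calls without wild-type high fat replicate 5. It gave 1 without wild-type high fat replicate 8, wild-type control diet replicate 8 or Ucp1-KO high fat replicate 4.

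Markers of lymphocytes and several other cell types moved with the members between genotypes at 20 °C in iWAT, and less evenly in other comparisons. The 12 B cell markers, all in the table, summed to 311 to 553 RPKM in wild-type mice at 20 °C, 364 to 658 RPKM at 30 °C and 241 to 804 RPKM on high fat, and to 76.3 to 286, 27.2 to 515 and 144 to 597 RPKM in the same order in Ucp1-KO mice. All 12 were lower in Ucp1-KO mice at 20 °C and at 30 °C, and 0 on high fat. The count at 30 °C includes Ucp1-KO replicate 7, the library with the sum of 27.2 RPKM. Of all genes 55%, 16.2% and 0.0881% were lower in these comparisons, and the same shares stand beside the marker counts between genotypes that follow. The 11 T cell markers in the table summed to 157 to 320 RPKM in wild-type and 57.4 to 182 RPKM in Ucp1-KO iWAT at 20 °C, where 11 of 11 were lower, against 0 of 11 at 30 °C. Of the lymph node list (8 of 8 in the table), Ccl21a and Ccl19 were listed at 0 in every library. Macrophage markers in iWAT summed to 1011 to 2044 RPKM in wild-type and 476 to 976 RPKM in Ucp1-KO mice at 20 °C, with 16 of 19 lower. Progenitor and fibroblast markers (12 of 12) summed to 1141 to 2044 RPKM in wild-type and 603 to 1068 RPKM in Ucp1-KO iWAT at 20 °C, without overlap, with 12 of 12 lower. They were lower for 5 of 12 at 30 °C, and for 11 of 12 at 20 °C against 30 °C in Ucp1-KO mice, beside 16.2% and 51.4% of all genes. Brown adipocyte markers moved opposite to the members, at 379 to 1035 RPKM in wild-type and 1717 to 4452 RPKM in Ucp1-KO iWAT at 20 °C, without overlap. Of the 11 tested 8 were higher and 2 lower, beside 9.85% and 55% of all genes. At 30 °C they summed to 157 to 356 against 454 to 769 RPKM. With the mean log2(RPKM + 1) of the B cell markers as a covariate, a choice made after the values were seen, 15 members were lower and 1 higher in Ucp1-KO iWAT at 20 °C, 1 and 1 at 30 °C, and 18 were lower and 1 higher at 20 °C against 30 °C in Ucp1-KO mice. At 20 °C the B cell marker sums of the genotypes did not overlap, so the fit cannot separate the marker level from genotype there. The part of these cells in the differences was not tested.

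Between depots, members were lower in iBAT than in iWAT in every condition, most in wild-type mice. In 1 fit over all 96 libraries (16310 genes, 35 members tested), 33, 33 and 31 members were lower in iBAT in wild-type mice (control diet 20 °C, control diet 30 °C, high fat), beside 64.4%, 61.8% and 61.9% of all genes. In Ucp1-KO mice the counts were 27, 21 and 24, beside 42.7%, 35.8% and 45%. Members higher in iBAT numbered 1, 1 and 1 in wild-type and 3, 5 and 3 in Ucp1-KO mice, beside 15.8%, 19.5% and 16.7% and then 20.2%, 26.3% and 24.5% of all genes. Mki67 averaged 0.225 RPKM in wild-type iBAT and 6.53 RPKM in iWAT at 20 °C (log2 difference -2.61 ± 0.20, adjusted p = 8e-22) and 1.01 against 2.74 RPKM in Ucp1-KO mice (-0.88 ± 0.20, adjusted p = 5.9e-05). Ccnd2 averaged 7.0 against 46.5 RPKM in wild-type mice at 30 °C (log2 difference -2.59 ± 0.16) and 23.6 against 47.8 RPKM in Ucp1-KO mice. Cdkn1a was the member higher in iBAT in all 6 conditions, with no overlap in any, by 1.29 ± 0.16 to 2.70 ± 0.16 on the log2 scale. Rrm1 did not pass in wild-type mice (0.03 ± 0.10 at 20 °C) and was higher in iBAT in Ucp1-KO mice (0.85 ± 0.10 at 20 °C, adjusted p = 2.5e-12), where its libraries did not overlap at 20 °C and did under the other conditions. Of the members lower in iBAT, Ccne2, Cdk4, Tyms, Bub1, Cdc20, Kif20a, E2f1 and Aurka changed sign under 1 or both scalings in at least 1 condition. Counts moved with the scaling: members lower and higher in iBAT numbered 30 and 3, 31 and 3, and 27 and 5 with median-ratio scaling in wild-type mice, and 25 and 4, 20 and 5, and 17 and 4 in Ucp1-KO mice. With quantile normalization they numbered 28 and 4, 26 and 2, and 21 and 5 in wild-type and 13 and 3, 10 and 4, and 13 and 5 in Ucp1-KO mice. The share of all calls that were higher, 19.8%, 24% and 21.2% in wild-type and 32.1%, 42.4% and 35.3% in Ucp1-KO mice, became 45.8%, 44.6%, 45.2%, 48.3%, 46% and 45.6% with median-ratio scaling and 56.9%, 53.8%, 54.2%, 55.3%, 51.2% and 49.7% with quantile normalization.

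The genotype difference was tested between depots as an interaction (that in iBAT minus that in iWAT). It passed upward for 33 and downward for 1 of 35 members at 20 °C, 33 and 1 at 30 °C, and 25 and 0 on high fat, beside 48.6%, 52.7% and 41.3% of all genes upward and 7.03%, 10.4% and 6.49% downward. At 20 °C it was 1.73 ± 0.28 for Mki67 (adjusted p = 2.7e-07) and 1.73 ± 0.31 for Top2a on the log2 scale, since both were higher in Ucp1-KO iBAT and lower in Ucp1-KO iWAT. The downward member was Cdkn1a (-0.85 ± 0.22, adjusted p = 0.00093, and -0.90 ± 0.22 at 30 °C). On high fat Ccnd2 had the largest value (2.09 ± 0.23, adjusted p = 3e-12), and Mki67 did not pass (0.62 ± 0.28). Quantile normalization gave 24 up and 1 down, 19 and 2, and 4 and 2 in the 3 conditions, and median-ratio scaling 26 and 1, 27 and 2, and 11 and 2. The share of calls over all genes that were upward, 87.3%, 83.5% and 86.4%, became 56.1%, 51% and 49.9% with median-ratio scaling and 44.9%, 42.9% and 40.3% with quantile normalization. Of the upward members, Ccnd3, Cdk4, Pcna, Ccne2, Cdk2 and Plk1 changed sign under 1 or both scalings in at least 1 condition.

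Other cell cycle genes, 146 of 150 listed by symbol in the table, of which 119 were tested in iBAT and 140 in iWAT, are given beside the shares of all genes. In iBAT 9 rose and 32 fell at 20 °C in wild-type mice (7.56% and 26.9%, against 11.6% and 33% of all genes), and 6 rose and 86 fell in Ucp1-KO mice (5.04% and 72.3%, against 13.9% and 59.5%), with list medians of -0.17 and -0.41. In Ucp1-KO against wild-type iBAT 19 were higher and 12 lower at 20 °C (16% and 10.1%, against 24.7% and 13.1%), where 0 members were lower. At 30 °C 81 were higher and 7 lower (68.1% and 5.88%, against 54.2% and 10.5%), and on high fat 72 and 4 (60.5% and 3.36%, against 52.8% and 11%). In iWAT 113 were lower and 5 higher in Ucp1-KO mice at 20 °C (80.7% and 3.57%, against 55% and 9.85%), and 34 and 2 at 30 °C (24.3% and 1.43%, against 16.2% and 7.54%). The licensing pair moved apart in Ucp1-KO iBAT: Cdt1, which loads the MCM hexamer, averaged 0.552 RPKM at 20 °C and 3.49 RPKM at 30 °C (log2 difference -1.51 ± 0.13, adjusted p = 1.9e-13), and Gmnn (geminin), which blocks Cdt1, averaged 12.6 against 4.86 RPKM (1.24 ± 0.14, adjusted p = 1.5e-10). E2f2, an activating E2F gene, averaged 0.861 RPKM at 20 °C and 6.49 RPKM at 30 °C in wild-type iBAT (log2 difference -2.02 ± 0.18, adjusted p = 9.4e-13). Gadd45a, a growth arrest gene, averaged 12.2 RPKM in Ucp1-KO against 1.28 RPKM in wild-type iBAT at 20 °C (2.44 ± 0.23, adjusted p = 3.8e-12), and Gadd45g 61.2 against 23.6 RPKM in iWAT at 20 °C (1.41 ± 0.18, adjusted p = 2.8e-08). The antiproliferative Btg1 was lower in the cold in Ucp1-KO iBAT, at 14.2 against 41.6 RPKM (-1.49 ± 0.08, adjusted p = 2.2e-19), as was Btg2, at 9.3 against 27.4 RPKM (-1.48 ± 0.14).

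The genes whose profile was most like the mean of the tested proliferation and mitotic members over the 48 libraries of a tissue were, in iBAT, Racgap1 (Pearson r = 0.963), Hmmr (0.950), Tpx2 (0.948), Incenp (0.936) and Nek2 (0.934). In iWAT they were Tpx2 (0.954), 2810417H13Rik (0.952), Incenp (0.943), Lmnb1 (0.942) and Fen1 (0.942). The points share libraries, group differences and depth, and the values are descriptions. Tpx2 and Incenp, which act on the spindle and with Aurora B, were in both sets of 5.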

How the data were processed

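RNA was sequenced from 96 libraries of mouse iBAT and iWAT, and the authors deposited RPKM per transcript (168326 rows, stranded mRNA libraries per the labels' protocols). CASAVA and bcl2fastq are named in the submitters' processing notes. The aligner, genome build and annotation were not given in the sources used here. Rows without an Entrez ID (13.8% of rows, 9.85% of summed RPKM) were left out, and each symbol was represented by its row of highest mean. Spacing of low values gave whole reads, within 0.05, for 94.9% to 95.7% of values up to 20 reads in each library, over Ensembl transcripts of known length, and a median depth of 11.8 M reads. Reads behind a value set its counting error only, and spread between animals comes on top.

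Groups of 8 libraries came from the labels, whose separate animals set the spread; replicate numbers only name libraries. Differences on log2(RPKM + 1) were fitted with limma 3.58.1 (limma-trend, R 4.3.3) on genes at 0.5 RPKM or more in at least 8 libraries, with Benjamini-Hochberg adjustment within each comparison and a threshold of 0.05. The pseudocount of 1 understates changes of low genes.

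The members and lists were chosen with earlier results of these data known. All 36 members are named, and within each role up to 4 with the smallest p are given with values, with Mki67, Top2a, Cdkn1a and the D cyclins in any comparison. Alternatives were a pseudocount of 0.1, no filter, median-ratio scaling, quantile normalization and summed rows. RefSeq rows, the marker covariates and leaving out libraries were chosen after seeing the data.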

Additional observations from a re-analysis of the deposited data

Results flagged for a closer look

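In 72 groups of 8 libraries tested for a library far from the others (6 members in 12 groups), 5 had one, and chance gives about 1 in 20. The highest library was at 15.7 RPKM for Mki67 in wild-type iWAT on high fat, a library that also had the highest B cell marker sum (804 RPKM), at 0.528 RPKM for Top2a in wild-type iBAT at 20 °C, and at 94.2 RPKM for Cdkn1a in Ucp1-KO iWAT on high fat. In Ucp1-KO iBAT at 20 °C it was at 5.21 RPKM for Ccnd1 and 20.3 RPKM for Ccnd2.

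The temperature difference differed between genotypes in limma for 17 members in iBAT, with log2 values of -0.58 for Ccnd1 and -1.25 for Ccnd2, and for 6 in iWAT, with -0.52 for Ccnd2 and -0.43 for Ccnd3. The diet difference differed between genotypes in iBAT for 1 member, Ccnd1 (-1.10). The genotype difference differed between depots for 34 members at 20 °C, among them Mki67 (1.73), Top2a (1.73), Cdkn1a (-0.85), Ccnd1 (1.01), Ccnd2 (0.86) and Ccnd3 (0.35). At 30 °C it differed for 34 members, with 1.15 for Mki67, 1.19 for Top2a, -0.90 for Cdkn1a, 1.40 for Ccnd1 and 1.59 for Ccnd2, and on high fat for 25, with 0.89 for Top2a and 2.09 for Ccnd2.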

How the results depend on the processing

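Counts of members past the threshold, with those higher and lower, moved as follows, and the cause was not tested. In iBAT the count at 20 against 30 °C in wild-type mice was 6 (1 and 5) with the macrophage covariate, and in Ucp1-KO mice 11 (3 and 8) with it and 20 (4 and 16) with quantile normalization. Ucp1-KO against wild-type at 20 °C gave 16 (15 and 1) with pseudocount 0.1, 16 (12 and 4) with median-ratio scaling, 18 (17 and 1) with summed rows and 4 (2 and 2) with the covariate. At 30 °C it gave 14 (13 and 1) with quantile normalization and 6 (5 and 1) with the covariate, and on high fat 19 (16 and 3, median-ratio), 11 (9 and 2, quantile) and 3 (2 and 1) with the covariate. High fat against control diet in Ucp1-KO mice gave 5 (4 and 1) with quantile normalization and 7 (7 and 0) with the covariate. The interaction with temperature gave 11 with either scaling and 9 with the covariate, and that with diet 2 with summed rows. In iWAT, 20 against 30 °C gave 3 (2 and 1, so mostly higher in place of lower) with median-ratio scaling and 6 (1 and 5) with the B cell covariate in wild-type mice, and 12 (2 and 10, median-ratio) and 14 (2 and 12, quantile) in Ucp1-KO mice. Ucp1-KO against wild-type gave 16 (1 and 15) at 20 °C with the B cell covariate. At 30 °C it gave 4 with either scaling, 19 (1 and 18) with summed rows, 21 (1 and 20) with RefSeq rows and 2 with the covariate. High fat in wild-type mice gave 2 with the covariate, and the interaction with temperature 1 with either scaling and 3 with RefSeq rows. Between depots, quantile normalization gave 16 and 14 for Ucp1-KO mice at 20 and 30 °C. The depot interaction of the genotype difference gave 21 at 30 °C and 6 on high fat with quantile normalization, with 13 on high fat under median-ratio scaling.

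Leaving out 1 library at a time gave, in iBAT, 13 to 19 (20 against 30 °C, wild-type), 32 to 33 (Ucp1-KO), 7 to 12, 30 to 32 and 27 to 31 (genotype at 20 °C, 30 °C and on high fat), 10 to 16 and 2 to 5 (diet, wild-type and Ucp1-KO), and 16 to 18 and 1 to 2 (interactions with temperature and diet). In iWAT the same series was 1 to 3, 24 to 29, 34 to 34, 4 to 20, 0 to 0, 1 to 2, 3 to 5, 4 to 9 and 0 to 2. No paired analysis was possible because the labels give the groups no shared replicate numbers.

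Of 162 differences of single members named above, 158, 159, 154 and 159 kept direction and call with pseudocount 0.1, no filter, summed rows and RefSeq rows, 117 under median-ratio and 100 under quantile scaling, 41 of 109 with the macrophage covariate and 28 of 41 with the B cell covariate. Signs changed for 9 and 15 of them under the scalings, 36 with the macrophage covariate and 1 with RefSeq rows. With median-ratio scaling these were, in iBAT, Ccne2 (0.0013) and Cdk2 (0.13) at 20 against 30 °C in Ucp1-KO mice, Cdk4 (-0.017) and Rrm1 (-0.046) between genotypes at 30 °C, and Cdk2 (-0.025), Cdk4 (-0.14) and Rrm1 (-0.036) on high fat. In iWAT they were Ccne2 between temperatures in Ucp1-KO mice (0.043) and between genotypes at 20 °C (0.036). With quantile normalization they were, in the same order, Bub1b (0.011), Ccne2 (0.16), Cdk2 (0.23) and Cdkn1b (0.013), then Ccne2 (-0.091), Cdk2 (-0.081), Cdkn1b (-0.041) and Rrm1 (-0.13), then Ccne2 (-0.0099), Cdk2 (-0.12), Cdk4 (-0.11), Kif20a (-0.050) and Rrm1 (-0.11), and in iWAT Ccne2 (0.073 and 0.11). With RefSeq rows it was Ccnd3 in wild-type iWAT between temperatures (0.019). With the macrophage covariate they were, between temperatures in Ucp1-KO iBAT, Aurka (0.066), Aurkb (0.43), Bub1b (0.37), Ccnb2 (0.52), Cdk1 (0.38), Kif11 (0.23), Mki67 (0.13), Plk1 (0.14), Rrm2 (0.074) and Top2a (0.055). Between genotypes at 30 °C they were Aurka (-0.012), Aurkb (-0.41), Birc5 (-0.016), Bub1b (-0.25), Ccnb2 (-0.46), Ccne1 (-0.042), Cdk1 (-0.34), Cdkn1b (-0.010), Kif11 (-0.25), Mki67 (-0.12), Rrm1 (-0.022), Rrm2 (-0.00939) and Top2a (-0.14). On high fat they were Aurka (-0.048), Aurkb (-0.14), Birc5 (-0.083), Bub1b (-0.12), Ccnb2 (-0.38), Cdc20 (-0.000336), Cdca8 (-0.024), Cdk1 (-0.29), Kif20a (-0.026), Mki67 (-0.15), Plk1 (-0.020), Rrm1 (-0.000116) and Top2a (-0.069). The sign changes with the macrophage covariate all fall in comparisons whose macrophage marker sums did not overlap between groups. Members with few reads, such as Top2a, Cdk1 and Aurkb in wild-type iBAT, are limited by depth.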
